A study of Danio rerio with 6 samples.

Results

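The genes examined here encode the protein parts of the spliceosome and the RNA-binding proteins that guide it, in zebrafish hindbrains with and without *gas6*. Members were taken by name: every gene whose symbol begins with snrp, sf3a, sf3b, srsf, hnrnp, hnrp, prpf or u2af, or is one of *lsm2* to *lsm8*, with letter case ignored. This gave 80 of the 23025 genes in the table. All 80 passed the filter on low counts, so none was lost before testing. By role they were 13 Sm and Sm-like proteins, 16 proteins of the U1 and U2 particles with SF3 and U2AF, 13 PRPF proteins, 14 SR proteins and 24 hnRNPs. The names used by the rule do not reach every spliceosomal gene, since those called snrnp fall outside it.

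Hindbrains were dissected at 48 hours post fertilization (hpf), and RNA from pools of them was made into 3 wildtype and 3 *gas6* mutant polyA libraries. The wildtype group was *Tg(olig2:EGFP)vu12*, a line in which an *olig2* transgene drives green fluorescent protein. The mutant group was homozygous for a frameshift in *gas6*, a secreted ligand of TAM receptor tyrosine kinases, and carried the same transgene, whose fluorescence guided the dissection of the mutants. Which of the several *gas6* deletions of the founder the libraries carried is not given in the sources used here, and nothing says whether pools shared parents or a clutch, so the p-values measure the spread between these pooled libraries.

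An intron is removed in steps. The U1 particle marks the start of the intron, U2AF and then the U2 particle with SF3 mark its end and branch point, and the U4, U5 and U6 particles join to form the active enzyme. Sm proteins form the ring at the heart of most of these particles, and Sm-like (Lsm) proteins form that of U6. SR proteins generally help exons to be recognized, hnRNPs often oppose them, and the balance of these proteins sets alternative splicing, which is especially rich in the nervous system.

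Levels are given in CPM, a gene's count relative to the total of its library after TMM scaling (trimmed mean of M-values). Fold changes compare *gas6* mutants with wildtype on the log2 scale, so negative values mark genes with less mRNA in mutants. A gene is called changed at a Benjamini-Hochberg adjusted p-value under 0.05 over all 20463 genes tested with edgeR's quasi-likelihood test. Library totals ranged from 18376627 to 27025868 counts. *gas6* itself fell to 12.8% of its wildtype level (log2 fold change -2.97, SE 0.136, adjusted p = 7.24e-08). Of 12 hindbrain-defining genes found, such as Hox genes, all were tested, and their summed level was 1005 to 1231 CPM in wildtype and 843 to 941 CPM in the mutants. Among them 7 were called down, 1 was called up and 4 were not called. That is 58.3% called down, beside 16.6% of all genes and 28.3% of those at a mean of 30 CPM or more. Of the 12, 2 changed over 2-fold, *egr2b* at 21.4% and *hoxb1a* at 37.8% of wildtype.

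Most of the splicing genes were lower in *gas6* mutants. Of the 80 members, 50 were called down, 2 were called up and 28 were not called. The median log2 fold change was -0.38, a level 77.0% of wildtype, and no member changed more than 2-fold, which 9.65% of all tested genes and 2.39% of those at a mean of 30 CPM or more did. Over all tested genes 33.3% were called, 16.6% down and 16.7% up, with a median log2 fold change of 0.02. Most members are abundant, with 74 of 80 at a mean of 30 CPM or more. Among all 5683 genes at that level 38.7% were called, 28.3% down and 10.4% up, with a median of -0.13. So 62.5% of all 80 members were called down, beside 28.3% of genes at 30 CPM or more. That level is a floor, and genes were not matched further by abundance. The called decreases ran from -0.26 for *hnrnpua* to -0.74 for *srsf1a*, with SEs over the members from 0.0894 to 0.175. Of the 28 that were not called, 22 had negative and 6 had positive values, and 8 lay between an adjusted p of 0.05 and 0.1.

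In 60 members all 3 mutant libraries lay below all 3 wildtype libraries, and in 3 they lay above. Over all tested genes the genotypes did not overlap in 49%, with the mutants below in 24.2%. At 30 CPM or more these shares were 54.3% and 39.6%. Summed over the 80 members the level was 22810, 19510 and 19630 CPM in wildtype libraries 1, 2 and 3 and 16550, 16510 and 15490 CPM in the mutants, with no overlap. Wildtype library 1 was the highest of all 6 libraries for 64 members, and *gas6* mutant library 3 was the lowest for 50. Without wildtype library 1 the median was -0.30 and 49 members were called down. Without *gas6* mutant library 2 or 3, 30 were called down, which is 37.5% of the members. Calls over all genes fell as well. Of all genes 10.9% were called down without *gas6* mutant library 2 and 13.4% without library 3, against 16.6% with all libraries. In bulk tissue, fewer cells of a type and less RNA per cell cannot be told apart.

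**Figure D1:**
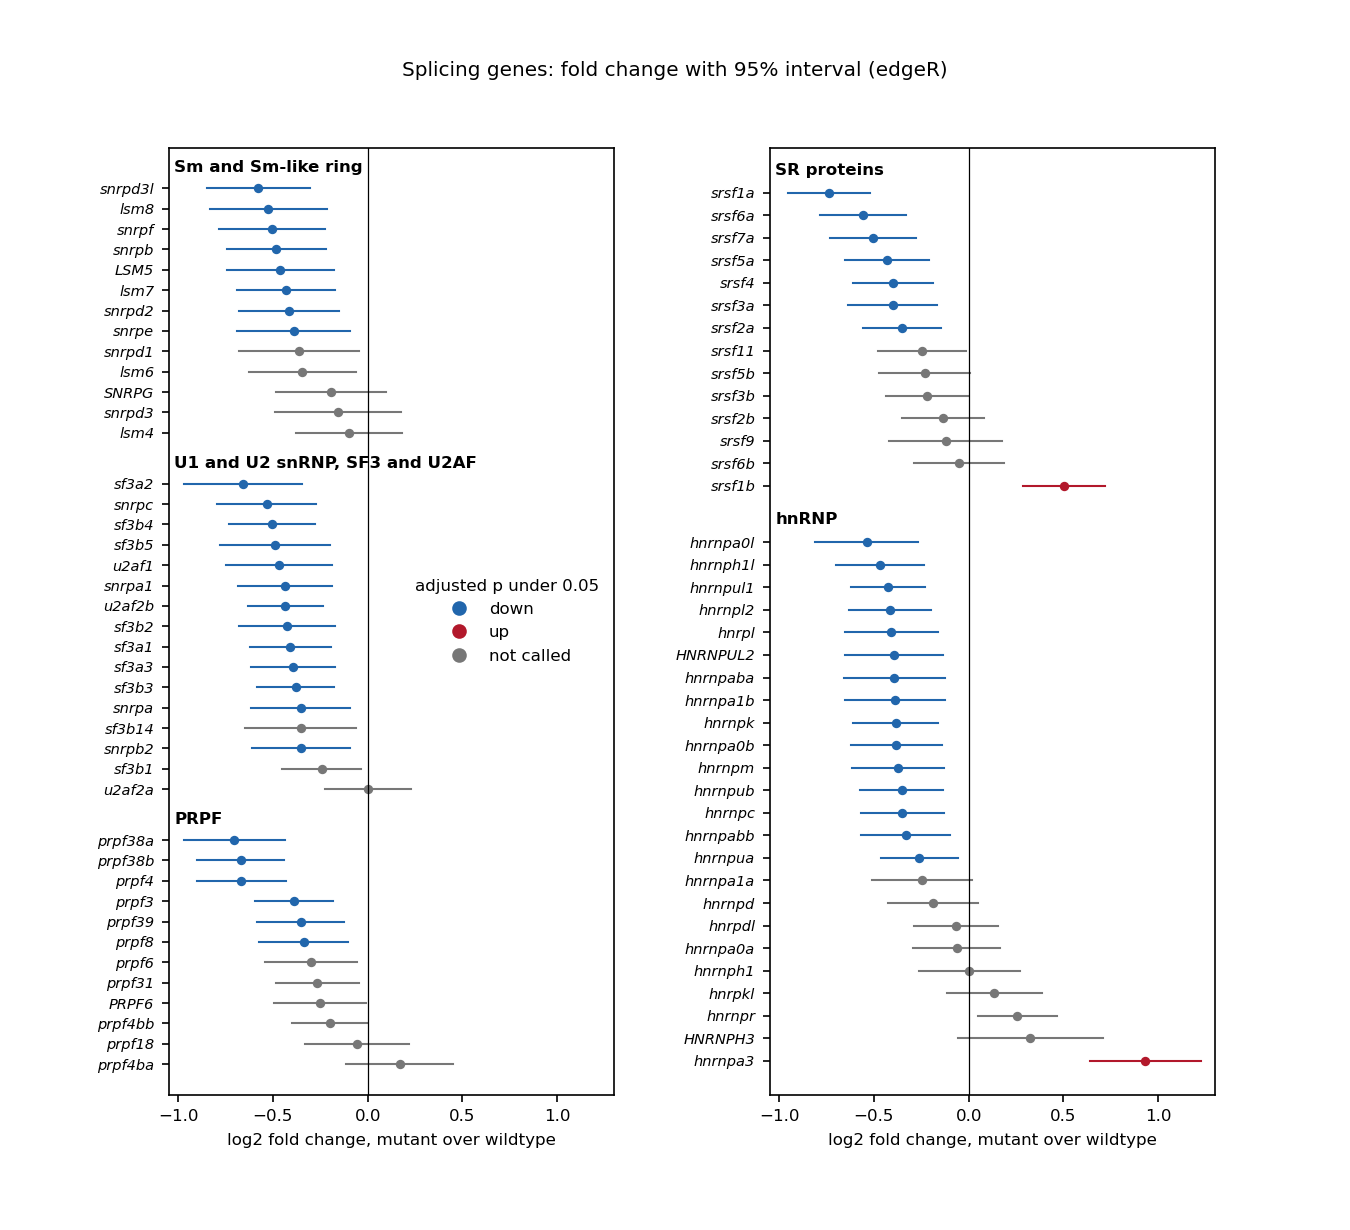
Log2 fold change of 79 of the 80 splicing genes (mutant over wildtype, points) with its 95% interval from edgeR (bars), grouped by role. Blue genes were called down (49 of those plotted), red up (2) and grey were not called (28). The points lie mostly left of 0, and *srsf1b* and *hnrnpa3* are the called exceptions.

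The size and number of these decreases depended on how the libraries were scaled, because the scaling sets where no change lies. With library size alone the median of all tested genes moved to 0.16 and that of the members to -0.23. Then 19 members were called down and 3 up, so that 27.5% were called beside 33.4% of all genes. Of all genes 9.84% were then called down, against 23.8% of the members. With TMM on all genes, 28.3% of genes at 30 CPM or more were called down, against 16.6% of all genes. The share of those abundant genes with library size alone was not computed. With TMM factors computed on genes of 30 CPM or more, an alternative chosen after seeing the data, 22 were called down and 3 up (31.2% beside 35% of all genes). Among called members the share that was up was 3.85% with TMM on all genes, 13.6% with library size alone and 12% with factors from abundant genes, and among all called genes it was 50.3%, 70.6% and 70.3%. Scaling adds nearly the same amount to the log2 fold change of every gene, so the distance between the members' median and that of all genes (-0.39) hardly moves with it by construction. With 1 library left out that distance was -0.45 to -0.31. These libraries give levels relative to each other and no absolute amounts. Of the 52 called members, 20 were called in each of 13 other fits (other scalings, DESeq2, no filter, the replicate block and each library left out), and all 52 kept their sign. These fits reuse the same libraries and begin with genes already called, so a kept sign is no independent check. The same counts were not made for all called genes. Those 20 included *srsf1a*, *srsf1b*, *hnrnpa3*, *prpf38a*, *prpf38b* and *prpf4*.

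**Figure D2:**
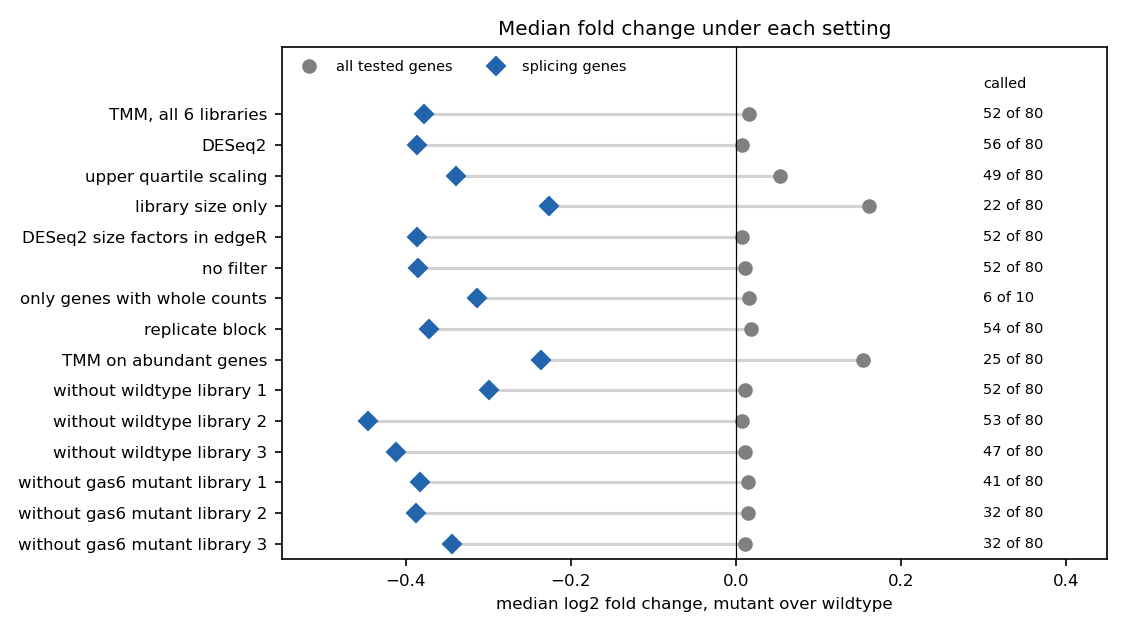
Median log2 fold change (mutant over wildtype) of the splicing genes (blue) and of all tested genes (grey) under each setting, with the number of splicing genes called at right. Both medians shift together when only library size is used or when scaling rests on abundant genes, so their distance, near -0.39, is not a check of the scaling.

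Sm and Sm-like genes, the ring proteins, were lower in all 13 cases by sign, with 8 called down and a median of -0.42. The share called down was 61.5%, beside 16.6% of all genes and 28.3% of those at 30 CPM or more. *snrpd3l*, a copy of the gene for SmD3, fell most. It had 105.3, 81.3 and 81.2 CPM in wildtype and 66.4, 58.9 and 54.4 CPM in the mutants, every mutant library below every wildtype one (log2 fold change -0.58, SE 0.125, adjusted p = 0.00432). *snrpd3*, the other SmD3 gene, had -0.16 and was not called (adjusted p = 0.458). *snrpb*, which encodes SmB, went from 369 CPM ± 60.9 (SD, n = 3) to 264 CPM ± 7.58 (SD, n = 3). Its change was -0.48 (adjusted p = 0.00916). *snrpf* (SmF) and *lsm8*, the Lsm protein that marks the nuclear U6 ring, had -0.50 and -0.52 (adjusted p = 0.0103 and 0.0147). These last calls were less firm, since each was lost when *gas6* mutant library 2 was left out (adjusted p = 0.0529 and 0.0556). For *lsm8* it was also lost without *gas6* mutant library 3 (0.0619) and with library size alone (0.0643). Without *gas6* mutant library 2 or 3, 4 and 3 ring genes were called, and with library size alone 3. Of all genes 22.5%, 26.9% and 33.4% were called in these fits.

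The U1, U2, SF3 and U2AF genes had 13 of 16 called down and none up, with a median of -0.42. Those called down were 81.2% of the class, beside 16.6% of all genes and 28.3% of genes at 30 CPM or more. Whether the classes differ from each other was not tested. *sf3a2*, a subunit of the SF3A complex of the U2 particle, had 119 CPM in wildtype library 1 and 88.3 and 76.2 CPM in the others, against 60.1, 62.4 and 57.5 CPM in the mutants. The groups did not overlap, although wildtype library 1 stood above the other wildtype libraries (log2 fold change -0.66, SE 0.144, adjusted p = 0.00459, and -0.46 without wildtype library 1). *snrpc*, whose product steadies U1 at the start of the intron, fell by 0.53 (adjusted p = 0.00512), and *sf3b4*, an SF3B subunit, fell by 0.51 (adjusted p = 0.00323). *sf3b1*, the large SF3B subunit that clasps the branch point, had 524, 531 and 547.5 CPM in wildtype and 432, 474 and 448.5 CPM in the mutants. Its genotypes did not overlap, but the difference of -0.24 (SE 0.0957) did not pass (adjusted p = 0.0699). It passed under DESeq2 (0.0345) and without wildtype library 1 (0.0269). The class count was 8 without *gas6* mutant library 2 and 4 with library size alone, where 22.5% and 33.4% of all genes were called.

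PRPF genes are named after yeast mutants that could not process pre-mRNA. Of the 13, 7 were called down and none up, with a median of -0.34. That is 53.8% called down, beside 16.6% of all genes and 28.3% of those at 30 CPM or more. The 3 largest decreases were close in size. *prpf38b* had 96.2, 80.7 and 84.7 CPM in wildtype and 50.0, 56.9 and 57.4 CPM in the mutants, a gap wider than the range of either group. Its log2 fold change was -0.67 (SE 0.106, adjusted p = 0.000629). *prpf38a*, related to the yeast factor needed to activate the assembled spliceosome, fell by 0.70 (SE 0.122, adjusted p = 0.0011), and *prpf4*, a protein of the U4/U6 particle, fell by 0.67 (SE 0.108, adjusted p = 0.000732). Both were separated by genotype, at 61.4% and 63.0% of the wildtype level. *prpf8*, the scaffold at the catalytic centre, had 479, 546 and 565 CPM in wildtype and 414, 455 and 388.5 CPM in the mutants. Its change of -0.34 (adjusted p = 0.0309) was the least firm of these. It was lost in 4 of the fits that left out 1 library, those without wildtype library 2 or 3 and without *gas6* mutant library 1 or 3 (adjusted p = 0.0762, 0.102, 0.0918 and 0.1), and with library size alone (0.223). The table holds 2 entries for *prpf6* that differ only in letter case. They had -0.30 and -0.25, neither was called, and whether they are 1 gene or a pair of genes is not given in the table.

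SR protein genes included a pair of copies that moved in opposite directions. Of the 14, 7 were called down, 1 was called up and 6 were not called, with a median of -0.30. The share called down was 50%, beside 16.6% of all genes and 28.3% of those at 30 CPM or more. *srsf1a*, a copy of the gene for the founding SR protein SRSF1, had 348, 307.5 and 301 CPM in wildtype and 187, 202 and 185 CPM in the mutants. All mutant libraries were far below the wildtype ones (log2 fold change -0.74, SE 0.0997, adjusted p = 0.000215). *srsf1b*, the other copy, had 82.1, 73.9 and 80.3 CPM in wildtype and 113.6, 119 and 102 CPM in the mutants. It went the other way without overlap (0.50, SE 0.0999, adjusted p = 0.00256). Among the other SR genes *srsf6a* fell by 0.56, *srsf7a* by 0.51 and *srsf5a* by 0.43 (adjusted p = 0.00175, 0.00316 and 0.00686). *srsf7a* went from 261 CPM ± 27 (SD, n = 3) to 184 CPM ± 9.32 (SD, n = 3), and SRSF7 is a shuttling SR protein that also takes part in mRNA export.

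The hnRNP genes contained both strong decreases and the largest increase. Of the 24, 15 were called down, 1 was called up and 8 were not called, with a median of -0.35. That is 62.5% called down, beside 16.6% of all genes and 28.3% of those at 30 CPM or more. *hnrnpa0l* had 1606, 1254 and 1211 CPM in wildtype and 933, 920.2 and 951 CPM in the mutants. Its mutant libraries were tightly grouped below the wildtype range (log2 fold change -0.54, SE 0.124, adjusted p = 0.00623). *hnrnph1l*, of the hnRNP H family that binds runs of G, fell by 0.47. *hnrnpul1* and *hnrnpl2* fell by 0.43 and 0.42 (adjusted p at most 0.00777 for the 3 genes). *hnrnpaba*, of the A/B family, had 2245, 1888 and 1903 CPM in wildtype and 1714, 1441 and 1445 CPM in the mutants. It was called (-0.39, adjusted p = 0.0282), but not without *gas6* mutant library 2 or 3 (0.125 and 0.0836) or with library size alone (0.108). Without *gas6* mutant library 1, 2 or 3 the hnRNP count was 8, 8 and 6, and with library size alone 6. Of all genes 24.9%, 22.5%, 26.9% and 33.4% were called in these fits.

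*hnrnpa3*, an A/B-type hnRNP, was the largest increase among all members. It had 10.2, 9.16 and 9.0 CPM in wildtype and 20.5, 18.1 and 15.8 CPM in the mutants, from counts that were whole numbers in every library. The lowest mutant value was above the highest wildtype value, and the mean rose to 191% of wildtype (log2 fold change 0.93, SE 0.134, adjusted p = 0.000328). Its range over the 13 other fits was 0.84 to 1.08. Another hnRNP, *hnrnpr*, lay higher in every mutant library but was not called (0.26, adjusted p = 0.0556). It was called in 1 of 6 fits without 1 library and in 3 of 7 other fits, and is named here after its values were seen.

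**Figure D3:**
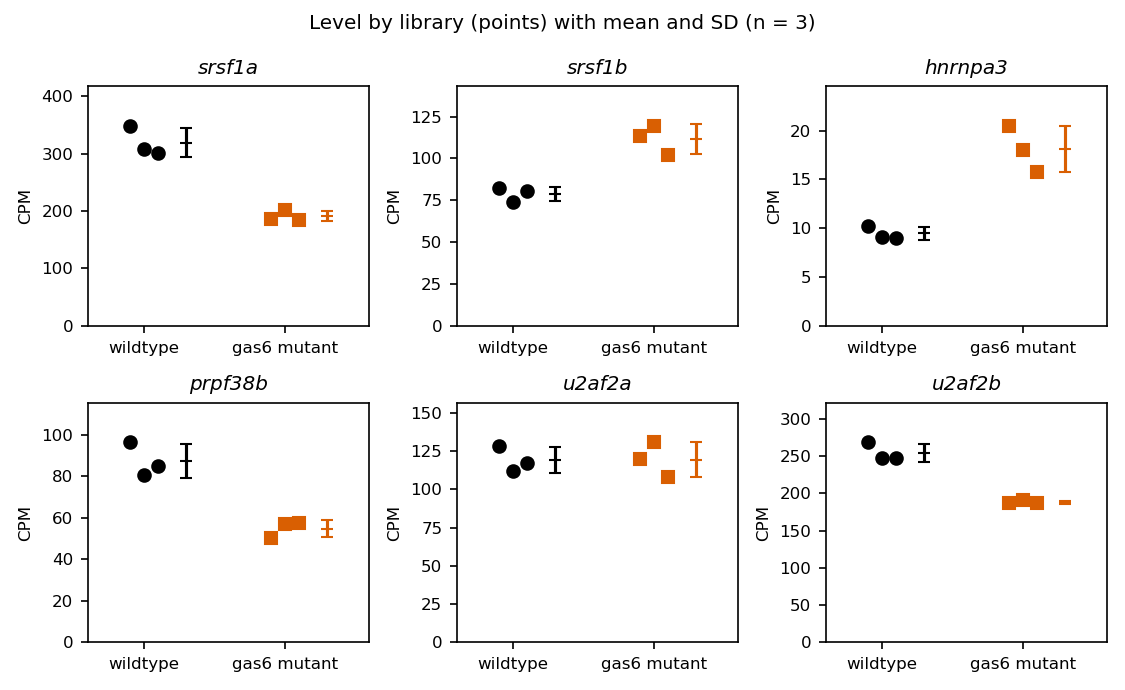
CPM of 6 splicing genes in each library (points) with the mean and SD (n = 3) beside them, each axis starting at 0. *srsf1a*, *prpf38b* and *u2af2b* are lower in every mutant library, *srsf1b* and *hnrnpa3* are higher in every mutant library, and the genotypes overlap for *u2af2a*.

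Zebrafish often keep a pair of copies, called a and b, where mammals have a single gene, and 11 such pairs were among the members. Copies were compared by the share of the a copy in the summed CPM of both, which no scaling can change, although gene length keeps the share from measuring which copy has more transcripts. In 7 of the 11 pairs the share did not overlap between genotypes. The CPM of single genes did not overlap in 49% of all tested genes and 54.3% of those at 30 CPM or more. Shares were not computed for pairs outside the members. With 3 libraries against 3, the smallest p of the exact two-sided permutation test is 0.1, and all 7 had it (0.157 after Benjamini-Hochberg adjustment over the 11 pairs), so no pair could pass 0.05. The *srsf1* pair moved most. *srsf1a* held 80.9%, 80.6% and 78.9% in wildtype and 62.2%, 62.8% and 64.5% in the mutants, a shift of -17.0 percentage points against SDs of 1.06 and 1.17 points. This was the sole pair whose copies were called in opposite directions.

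In 7 pairs 1 copy was called and the other was not, where 65% of all 80 members were called. A call in 1 copy and none in the other is not a test of a difference between them. *u2af2b*, for the large U2AF subunit that reads the tract before the intron's end, fell from 268, 247 and 247 CPM to 187, 190.4 and 186.5 CPM (-0.43, SE 0.0915, adjusted p = 0.00362). *u2af2a* had 128, 112 and 117 CPM in wildtype and 119, 130.5 and 108 CPM in the mutants, which overlapped (0.00, 95% interval -0.23 to 0.23, adjusted p = 0.991). The share of *u2af2a* went from 31.9% ± 0.626 to 38.7% ± 2.04 (SD, 3 libraries each). *srsf6a* fell while *srsf6b* had -0.05 (95% interval -0.29 to 0.19), and the a share went from 59.4% ± 3.15 to 50.9% ± 3.56. *hnrnpa0b* fell by 0.38 beside -0.06 for *hnrnpa0a*, and *hnrnpa1b* fell by 0.39 beside -0.25 for *hnrnpa1a*. *srsf2a*, *srsf3a* and *srsf5a* fell by 0.35, 0.40 and 0.43, beside -0.14, -0.22 and -0.23 for their b copies. The calls of *hnrnpa0b* and *hnrnpa1b* were lost without any single mutant library, that of *srsf2a* without *gas6* mutant library 2, and those of *hnrnpa0b*, *hnrnpa1b*, *srsf2a* and *srsf3a* with library size alone. Leaving out wildtype library 1 brought a call for *srsf5b* (-0.32, adjusted p = 0.0234). For *srsf5* the a share overlapped between genotypes (exact permutation p = 0.4), and the difference of -3.24 points shrank to -0.73 points without wildtype library 1. Both copies of *hnrnpab* and of *hnrnpu* were called down, and neither copy of *prpf4b* was called. The estimated counts of most copies were not whole numbers. Whether reads were shared between the copies of a pair was not tested.

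**Figure D4:**
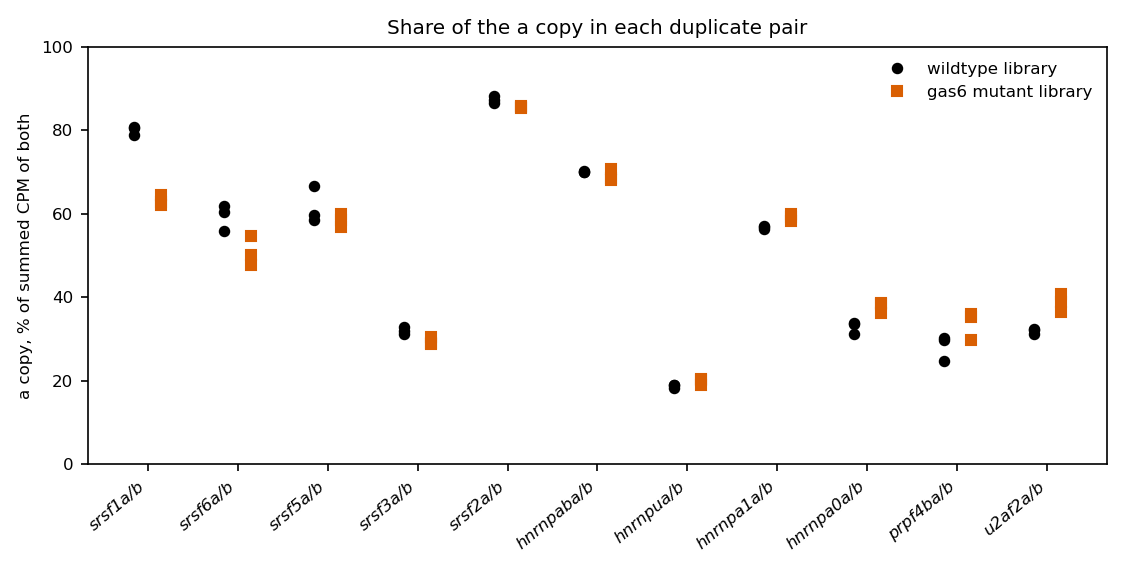
Share of the a copy in the summed CPM of the a and b copies (percent) in each library, for 11 duplicate pairs ordered by the difference between genotypes. The *srsf1* pair separates most, from 78.9% or more in wildtype to 64.5% or less in the mutants, while *hnrnpab*, *hnrnpu*, *prpf4b* and *srsf5* overlap.

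The rest of the pathway was read from lists written by role. Over all tested genes 16.6% were called down, and at 30 CPM or more 28.3%. Of 70 other spliceosomal proteins, 43 (61.4%) were called down and none up, with a median of -0.39. Their lowest p-values belonged to *srrm2*, a large SR-related protein, *ddx39b*, a helicase of early assembly and mRNA export, and *snrnp200*, the helicase that unwinds U4 from U6. They fell by 0.60, 0.63 and 0.54 (adjusted p = 0.000828, 0.00087 and 0.00151). With library size alone 26 of the 70 were called, beside 33.4% of all genes. Of 21 genes for building snRNPs, 6 were called down and none up, and 20 had negative values. That is 28.6% called down, beside the 16.6% of all genes and 28.3% at 30 CPM or more. Most of these assembly genes lay under 30 CPM, so the second share is of more abundant genes. Their median log2 fold change was -0.34, beside 0.02 over all tested genes. *prmt5*, the methyltransferase that modifies Sm proteins, went from 93.5, 94.8 and 84.2 CPM to 51.3, 56.3 and 50.4 CPM. Its groups lay far apart (-0.79, SE 0.0991, adjusted p = 0.000133). *ddx20*, the Gemin3 helicase of the SMN complex, and *phax*, an adaptor for snRNA export, fell by 0.54 and 0.47. Without *gas6* mutant library 2, 3 of these 21 were called, beside 22.5% of all genes.

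Among 11 genes for SR protein kinases or nuclear import, 2 were called up and 2 down. That share of 36.4% is near the 33.3% of all genes. *tnpo3*, the importin for SR proteins, fell by 0.49 (adjusted p = 0.0028) and the kinase *clk2b* by 0.36 (0.021). The SR protein kinases *SRPK2* and *srpk3* rose by 0.40 and 0.49 (adjusted p = 0.0124 and 0.00854). The *clk2b* call was lost without *gas6* mutant library 1 or 2 and with library size alone, and that of *SRPK2* without *gas6* mutant library 2 or wildtype library 3. DESeq2 called 7 of the 11, and without *gas6* mutant library 2 there were 2. Of all genes 31.7% and 22.5% were called in these fits.

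The list of splicing regulators, many of them tissue-specific and some widely expressed, held changes in both directions. Of 50 tested, 10 were called up and 7 down (34%, close to the 33.3% of all genes), with a median of 0.04. By sign 24 of the 50 were lower and 26 higher. Their summed level was nevertheless lower, at 10910, 10960 and 11170 CPM in wildtype and 9830, 9981 and 9354 CPM in the mutants (88.3% of wildtype, no overlap). The sum weighs abundant genes most, and *khdrbs1a* alone had a mean of 2431 CPM in wildtype and 1726 CPM in the mutants. The list was not tested against the classes. *khdrbs3* and *khdrbs2*, whose mammalian relatives are largely neuronal, rose by 0.91 and 0.84 (adjusted p = 0.000294 and 0.000281). *khdrbs2* had 12.4, 11.4 and 13.5 CPM in wildtype and 21.7, 23.8 and 21.1 CPM in the mutants. *khdrbs1a*, a widely expressed member of that family, fell by 0.49 from 2634, 2383 and 2277 CPM to 1770, 1732 and 1678 CPM. Its b copy, *khdrbs1b*, had a mean of 446.5 CPM in wildtype and 446.2 CPM in the mutants and was not called (adjusted p = 0.995). *ptbp1b* fell from 270, 307 and 330 CPM to 204, 196 and 207 CPM (-0.58, adjusted p = 0.0013). Its mammalian relative holds back neuronal exons in dividing progenitors. The list was not sorted by cell type, and the following genes are named after their values were seen. *ptbp2b* was called down (-0.30, adjusted p = 0.033), and *elavl4* and *rbfox1* were called up (0.87 and 0.63). *nova2*, *srrm4*, *elavl3* and *ptbp2a* were not called. *rbm24a* rose by 0.70 and *rbm4_3* fell by 0.45 (adjusted p = 0.000276 and 0.00423). The related entries *rbm24b*, *rbm4_1* and *rbm4_2* had 0.24, -0.08 and 0.04 and were not called. The sole gene of the list over 2-fold was *pcbp3*, named after its values were seen (1.04). Without *gas6* mutant library 2, 11 of the 50 were called, beside 22.5% of all genes.

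**Figure D5:**
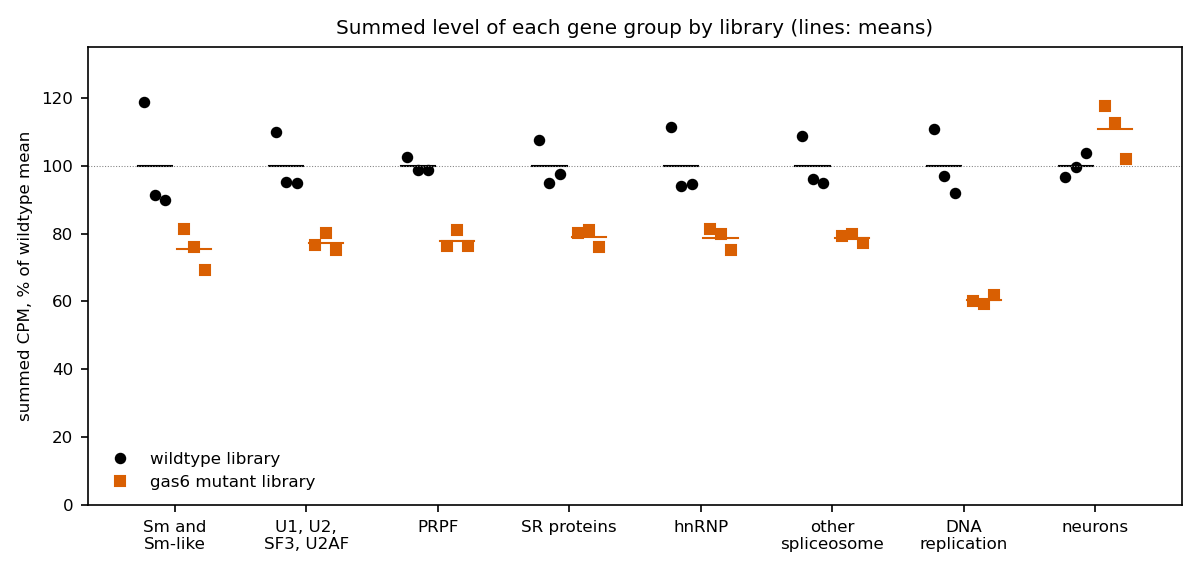
Summed CPM of each gene group as a percent of the wildtype mean, by library (points) with the group means (lines), from 0. The 5 splicing classes and the other spliceosomal genes lie near 78% in the mutants, with wildtype library 1 above the other wildtype libraries, while DNA replication genes lie near 60% and neuronal genes near 111%.

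Some markers of cell state and of neighbouring tissue also moved with genotype. The summed levels of neuronal, skeletal muscle and erythrocyte genes overlapped between genotypes. Over all tested genes 33.3% were called, 16.7% up and 16.6% down. Of 42 DNA replication genes, active in dividing cells, 41 were called down and none up, and their summed level was 5019 to 6057 CPM in wildtype and 3226 to 3383 CPM in the mutants. Of 23 neuronal genes 8 were called up and 4 down, and their sums overlapped (3826 to 4109 CPM and 4042 to 4651 CPM). Of 25 forebrain genes 17 were called up and 2 down, and their sum was 351 to 375 CPM in wildtype and 514 to 564 CPM in the mutants. Of 21 lens genes found, 16 passed the count filter, and all 16 were called up. A gene scarce in wildtype passes that filter only if it is higher in the mutants, so this share is partly set by the filter. Of those not tested, *crybb3* and *crygs1* overlapped between genotypes, and *cryba1a*, *crybb1l3* and *crybb2* were higher in every mutant library. The lens sum rose from 4.83 to 67.4 CPM in wildtype to 850 to 2016 CPM in the mutants. Of 16 photoreceptor genes found, 9 passed the same filter and 7 of these were called up. The photoreceptor sum was 4.74 to 9.66 CPM in wildtype and 47.7 to 81.2 CPM in the mutants. Much of the mutant sum was *crx*, with a mean of 2.55 CPM in wildtype and 46.6 CPM in the mutants. *opn1sw2* and *pde6c* had -0.25 and -0.72 and were not called. Skeletal muscle genes, with 1 of 26 called up and 1 down, summed to 48060 to 50710 CPM in wildtype and 38420 to 74280 CPM in the mutants, highest in *gas6* mutant library 3. Erythrocyte genes, 4 of 11 up and 1 down, summed to 1237 to 1749 and 1604 to 1848 CPM. Their part in the splicing gene differences was not tested.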

How the data were processed

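Hindbrain RNA of 6 pooled samples at 48 hpf was sequenced from stranded mRNA libraries, 3 per genotype. The authors deposited 1 table of 23025 genes with unnormalized estimated counts, and the submitters' processing notes name RSEM 1.2.28, DESeq2 and the builds GRCz10 and danRer7 without roles. The aligner is not given in the sources used here. In 70 of the 80 members the estimated counts were not whole numbers in every library. The deposited table also holds the authors' own log2 fold change, fold change as a ratio and adjusted p-value, which were not used.

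Estimated counts were rounded. Genes were filtered with filterByExpr (minimum count 10, minimum total 15), which kept 20463. edgeR 4.0.16 under R 4.3.3 was run with TMM scaling and its quasi-likelihood functions (glmQLFit, glmQLFTest) on a model of genotype alone, and SEs come from the F statistic. The study's criterion was a more than 2-fold change, so the model was chosen here. The script was tested on simulated data. Library totals of 18376627 to 27025868 counts leave the spread between libraries (biological coefficient of variation 12.5%) as the main error. No library repeated another: for libraries of the same genotype, chi-square divided by its degrees of freedom was 6.99 to 25.9.

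The members, classes and lists were chosen with earlier results of these data known, although from names alone. Most splicing genes named in the text followed a rule. It took members changed over 2-fold and the up to 4 called genes of lowest p per class and direction. The gene of highest mean CPM per class was also taken, as were copies whose calls differed within a pair. In each other list it took the up to 3 called genes of lowest p per direction. Named outside it were, among others, *snrpd3*, *hnrnpua*, both *prpf6* entries, *hnrnpr* and *pcbp3*. The values of 1 gene that this rule names are not reported here. Symbols matched RefSeq (GRCz12tu) for 76 members, or 78 with synonyms, under which *sf3b14* is *sf3b6*. Alternatives were DESeq2 1.42.0, other scalings, no filter, whole counts only, a stricter threshold, a replicate block and leaving out each library. No replicate number paired the libraries, since same-numbered libraries had correlations of -0.0679 to 0.0353 in their deviations.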

Additional observations from a re-analysis of the deposited data

How the results depend on the processing

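The median of the splicing genes was negative in each fit run. The log2 fold change of *gas6* was -2.98 to -2.82 over other settings and -3.04 to -2.86 with 1 library left out. The limits are the scaling, which no spike-in fixes, and 3 libraries per genotype.

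With library size alone there were 22 member calls, 19 of them down, and 3, 4, 4, 5 and 6 in the classes (ring, U1 and U2, PRPF, SR, hnRNP), 26 among other spliceosomal genes and 3 among snRNP assembly genes. The median of members was -0.23, and that of all genes 0.16. With factors from abundant genes the values were 25 and 22, then 3, 6, 4 and 6 for ring, U1 and U2, PRPF and hnRNP genes, with a median of -0.24. Both fits differ from the main one only in scaling, which moves every fold change. Whether that shift alone gives these counts was not tested. At an adjusted p under 0.01 there were 3831 calls over all genes (18.7%) and 24 among members (30%), 22 of them down. These members included 2 ring, 6 U1 and U2 and 5 hnRNP genes. The other lists then had 26 other spliceosomal genes, 9 regulators, 2 kinase or import genes and 2 assembly genes. Among genes with whole counts only, fewer genes enter, with 8812 tested. Of these 2646 (30%) were called, 851 over 2-fold, and of 10 members 6 (60%) were called, 5 down and 1 up. The calls among members were 2 ring, 1 U1 and U2, 2 PRPF and 1 hnRNP gene. The other lists had 8 other spliceosomal genes, 2 regulators and 1 kinase or import gene. DESeq2 called 7 kinase or import genes. The cause of that was not tested.

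With 1 library left out, member calls ranged from 32 to 53 (30 to 51 down, 2 to 3 up). They ranged from 3 to 10 for ring genes, 8 to 14 for U1 and U2, 5 to 7 for PRPF, 7 to 9 for SR and 6 to 17 for hnRNP genes, 31 to 42 for other spliceosomal genes, 11 to 19 for regulators, 2 to 6 for kinase or import genes and 3 to 8 for assembly genes. The lowest count, 32, came without *gas6* mutant library 2 or 3. Of all genes 22.5% and 26.9% were called there, against 33.3% with all libraries. The members' median ran from -0.45 to -0.30. Calls over all genes ranged from 4661 to 6919.

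The replicate numbers did not pair the libraries, and with a replicate block 54 members were called, 51 of them among the 52. Wildtype library 1 correlated best with *gas6* mutant library 2 (0.0518) and wildtype library 2 with *gas6* mutant library 3 (0.0406). For wildtype library 3 the own number was the closest (0.0353).

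Of 733 values of the 52 named genes under alternatives, 668 kept direction and side of the threshold, 47 lost the call, 3 gained it and 15 changed sign, in 4 genes that were called in none of these fits. These were *hnrnpa0a* (0.0853 with library size alone, 0.0749 with factors from abundant genes, -0.1067 to 0.0062 with 1 library left out), *srsf2b* (0.0092 and 0.001 under those 2 scalings) and *srsf6b* (0.0974, 0.0878, and -0.1253 to 0.0382 with 1 library left out). *u2af2a* had -0.0072 with DESeq2, -0.0073 with its size factors, -0.0064 with no filter and 0 with a replicate block, and -0.0682 to 0.0708 with 1 library left out.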
